A study of Mus musculus with 6 samples.

Results

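The collagen genes were taken as every gene whose symbol matches the naming pattern of a collagen chain, Col followed by a number, the letter a and a second number. Of the 23260 genes listed in each library, 44 were collected in this way. The libraries came from embryonic submandibular glands (eSMGs) of ICR mice at embryonic day 14, as 3 control libraries and 3 libraries of glands exposed to AMD3100, an antagonist of the chemokine receptor CXCR4. Per the methods of the study, AMD3100 was added at 50 µM to glands growing on a membrane, and up to 10 whole glands were pooled in a tube 6 h after the treatment. The labels name no allele or transgene, and no agent for the control glands. Each library is therefore a pool of whole glands, with epithelium, mesenchyme, vessels and nerves together.

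Collagens are the main structural proteins of the matrix around cells. Each molecule is a triple helix of chains that is folded, modified and secreted by the cell and then trimmed and crosslinked outside it. Fibrillar collagens build the fibres of the stroma, type IV collagen forms the sheet-like basement membrane under the epithelium, and the other classes decorate, connect or anchor these structures. In the salivary gland, collagen is known to gather at the clefts and the stalk as the epithelium branches.

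By class, the 44 genes comprised 11 fibrillar, 6 basement membrane, 2 multiplexin, 9 FACIT (fibril-associated), 7 beaded filament, 3 short chain network and 4 transmembrane collagens, together with the anchoring fibril gene Col7a1 and Col26a1, which was put in no class. All 44 were placed on mm10 (GRCm38.p6), the build named in the submitters' processing notes, with the coordinates of RefSeq. Promoter windows from the RefSeq table of the same build were matched to 35 of the 44. The 250 bases before the start are shown for 4 genes whose levels are described further on: Col3a1 and Col1a2, which make up much of the collagen signal, and Col6a1 and Col6a3, chains of the same molecule that moved in opposite directions between libraries. Windows are on the strand of the gene and run up to the start of the transcript in the table, which for Col6a3 lies inside the outer bounds of the gene. Capitals mark the letters TATAAA of the classical core promoter box, CCAAT of the box read upstream of many genes, or GGGCGG of the GC box, searched on both strands. The letters were marked at any distance from the start. Col3a1 lies at chr1:45311288-45311537 on the plus strand and held a TATAAA, 117 bases before the start. Col1a2 at chr6:4505368-4505617 on the plus strand held GGGCGG at 2 places and CCAAT at 1, which do not overlap. Col6a1 at chr10:76726045-76726294 and Col6a3 at chr1:90843972-90844221, both on the minus strand, held none of the 3.
Col3a1: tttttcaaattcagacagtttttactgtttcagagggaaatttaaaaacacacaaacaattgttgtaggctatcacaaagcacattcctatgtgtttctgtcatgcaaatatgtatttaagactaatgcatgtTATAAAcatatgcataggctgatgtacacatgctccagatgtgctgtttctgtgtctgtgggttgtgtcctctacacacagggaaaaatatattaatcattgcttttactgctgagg
Col1a2: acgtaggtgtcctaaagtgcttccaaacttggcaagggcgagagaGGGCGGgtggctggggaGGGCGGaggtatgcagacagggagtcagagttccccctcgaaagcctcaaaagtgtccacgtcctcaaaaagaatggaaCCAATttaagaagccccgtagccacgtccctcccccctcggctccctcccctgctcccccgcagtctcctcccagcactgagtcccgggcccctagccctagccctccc
Col6a1: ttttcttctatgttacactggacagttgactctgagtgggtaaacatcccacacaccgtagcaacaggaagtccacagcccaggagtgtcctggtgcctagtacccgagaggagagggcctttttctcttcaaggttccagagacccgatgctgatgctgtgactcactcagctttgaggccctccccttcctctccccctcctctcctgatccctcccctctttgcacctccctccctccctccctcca
Col6a3: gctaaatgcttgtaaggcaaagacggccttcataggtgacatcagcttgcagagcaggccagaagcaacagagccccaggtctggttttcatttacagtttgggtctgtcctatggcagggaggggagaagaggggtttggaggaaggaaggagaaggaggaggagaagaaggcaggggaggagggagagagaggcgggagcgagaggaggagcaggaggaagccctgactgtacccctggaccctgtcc

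The 38 windows of the matched collagen genes held TATAAA in 13.2%, CCAAT in 34.2% and GGGCGG in 57.9%, against 12.4%, 33.8% and 32.7% of all 32851 windows of the table. These letters describe the windows and name no factor at work. The 2 abundant basement membrane chains, Col4a1 and Col4a2, are read in opposite directions on chromosome 8, and the starts in the table stand 21 bases apart, so placed that the 2 transcripts overlap over this stretch. The stretch chr8:11312801-11312830 is shown on the plus strand, with capitals from one start to the other.
Col4a1/Col4a2: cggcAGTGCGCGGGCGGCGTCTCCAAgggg

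Levels are given as TMM-normalized CPM, counts scaled to the size of each library as edgeR estimates it. The kit reads the 3′ end of a transcript, about one read for each, so that CPM was compared between genes without division by length. Libraries held between 9051595 and 14393031 counts, and 3 counts, the floor used here, stood at 0.208 to 0.331 CPM without the TMM factor. Collagen genes took 0.496% (95% Wilson interval 0.492 to 0.5003), 0.533% (0.529 to 0.537) and 0.224% (0.221 to 0.227) of all counts in control replicates 1, 2 and 3. In the AMD3100 libraries they took 0.620% (0.616 to 0.624), 0.471% (0.467 to 0.475) and 0.209% (0.206 to 0.212). The lowest share in each group was that of replicate 3. Intervals and floors cover counting error only. In such bulk libraries, fewer cells of a type and less RNA per cell cannot be told apart.

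Replicate 3 of both groups stood apart from the other 4 libraries before any comparison of the treatment. On the first principal component of all 13610 genes tested, which held 38.2% of the variance, control replicate 3 lay at 84.8 and AMD3100 replicate 3 at 80.8, and the others lay between -78.7 and -17.4. The summed level of all collagen genes was 5010, 5092 and 2429 CPM in control replicates 1, 2 and 3, and 5143, 4935 and 2327 CPM in the AMD3100 libraries. Thus the sum differed by about a factor of 2 between replicate 3 and the others, whereas the group means were 4177 ± 1514 CPM (SD, n = 3) in control and 4135 ± 1569 CPM in AMD3100. In the bar chart of the classes, most of this drop is seen in the fibrillar block. Replicate 3 also had the most genes with a count, 16249 in control and 16345 in AMD3100 against 13761 to 15533 in the others, although its totals were the lowest. Rn45s, the ribosomal RNA precursor, took 20.2% and 22.7% of counts in replicate 3, inside the range of 16.2% to 32.5% of the others.

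**Figure D1:**
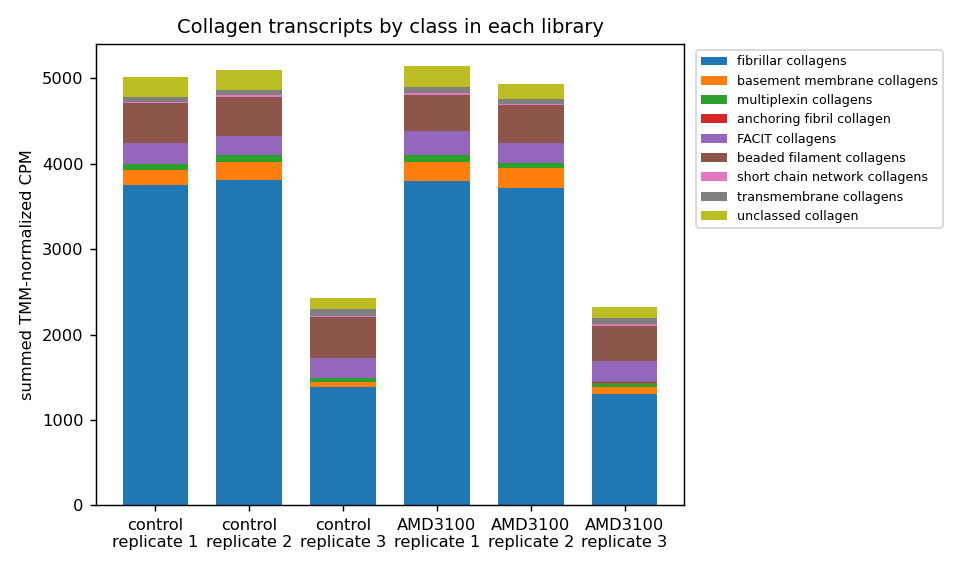
Summed TMM-normalized CPM of the collagen genes in each of the 6 libraries, stacked by class. The bars of replicate 3 reach 2429 (control) and 2327 CPM (AMD3100), and those of the other libraries reach 4935 to 5143 CPM.

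Fibrillar collagens dominated every library. Col3a1, Col1a2 and Col1a1, which encode the chains of type III and type I collagen of the stroma, made up 65.7%, 64.4% and 46.3% of the collagen signal in control replicates 1, 2 and 3 and 64.1%, 65.8% and 44.7% in the AMD3100 libraries. Col3a1, the single chain of type III collagen (chr1:45311538-45349706), stood at 1403, 1421 and 406 CPM in control and 1409, 1393 and 415 CPM in AMD3100-treated eSMGs. Replicate 3 was low in both groups, and the groups overlapped fully. Col1a2 (chr6:4505618-4541543) showed 1090, 1090 and 397 CPM in control and 1109, 1019 and 254 CPM in AMD3100. Col1a1 (chr11:94936224-94953042), whose chain outnumbers that of Col1a2 in the type I molecule, showed 796, 768 and 320 CPM in control and 779, 835 and 371 CPM in AMD3100. Both were low in replicate 3 of each group and overlapped between the groups. The ratio of Col1a1 to Col1a2 counts was 0.731, 0.705 and 0.805 in control and 0.702, 0.820 and 1.46 in AMD3100, so that the highest ratio, in AMD3100 replicate 3, was the only one with more Col1a1 than Col1a2.

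The remaining fibrillar genes were less abundant. Col5a1, a chain of type V collagen that sets fibril diameter, had a mean of 249 ± 89.1 CPM (SD, n = 3) in control and 251 ± 89.7 CPM in AMD3100, and its partner chain Col5a2 70.0 ± 19.7 and 66.1 ± 19.6 CPM. The last 300 bases of Col5a1 hold a stretch that also matches other transcripts, so that its counts are uncertain. Col27a1 was the steadiest of the class, at 44.7 to 73.6 CPM over the 6 libraries. Col2a1, the chain of cartilage type II collagen, stood at 31.8, 36.9 and 5.88 CPM in control and 27.5, 25.2 and 3.81 CPM in AMD3100. Col11a1 and Col5a3 lay between 4.26 and 20.8 CPM, Col24a1 reached 4.98 CPM in 1 library, and Col11a2 had at most 4 counts. Cartilage markers other than these were low. The 8 listed genes that the files hold summed to 19.96, 14.0 and 9.87 CPM in control and 20.5, 10.7 and 16.1 CPM in AMD3100. Sox6, a transcription factor that other tissues also use, was the most abundant at 3.59 to 11.6 CPM, and Acan, the core protein of cartilage aggrecan, did not pass 2.65 CPM.

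**Figure D2:**
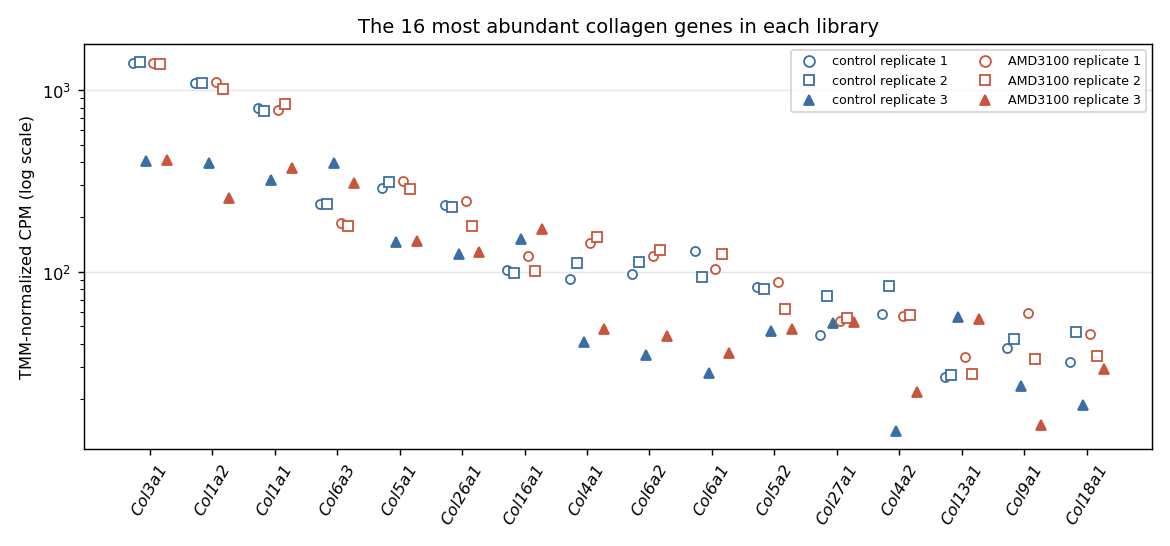
TMM-normalized CPM (log scale) of the 16 collagen genes of highest mean level in each library, with filled triangles for replicate 3. Filled triangles lie below the open symbols in Col3a1, Col1a2 and Col1a1, and above them in Col6a3, Col16a1 and Col13a1.

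Basement membrane collagens were led by Col4a1 and Col4a2, which together form the type IV molecule found in most basement membranes. Col4a1 (chr8:11198423-11312889) stood at 91.4, 112 and 41.0 CPM in control and 144, 155 and 48.5 CPM in AMD3100. It was higher in AMD3100 in each of the 3 same-numbered pairs, although the groups overlapped through replicate 3. Col4a6, Col6a2, Col6a6, Col9a2, Col16a1 and Col20a1 were also higher in all 3 pairs, and Col2a1, Col6a3 and Col25a1 lower. The share of all genes with such pairs is not given here, so that this sets none of these genes apart. Col4a2 (chr8:11312805-11449287) stood at 58.6, 83.6 and 13.3 CPM in control and 56.9, 57.8 and 21.7 CPM in AMD3100, with no common direction. The 2 genes with the start region printed above thus did not share a direction, and the ratio of Col4a1 to Col4a2 counts was 1.56, 1.34 and 3.09 in control against 2.53, 2.68 and 2.23 in AMD3100.

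The type IV chains on the X chromosome, Col4a5 and Col4a6, also lie head to head, with the starts in the table of promoter windows 1343 bases apart. Col4a5 (chrX:141475370-141689236) stood at 14.0, 6.70 and 4.69 CPM in control and 7.20, 11.9 and 3.68 CPM in AMD3100. Col4a6 (chrX:141165403-141474095) stood at 1.49, 7.21 and 0.798 CPM in control and 9.68, 15.1 and 1.60 CPM in AMD3100, higher in all 3 pairs with groups that overlapped. This was the widest span among the collagens with a count in every library and a test, the highest library being 18.9 times the lowest. The ratio of Col4a6 to Col4a5 counts was higher in AMD3100 in each pair, with 0.106, 1.08 and 0.170 in control against 1.34, 1.27 and 0.433 in AMD3100, and the groups still overlapped (exact permutation test, two-sided, p = 0.20, n = 3 per group). Counts of Col4a4 were 1, 48 and 7 in the control libraries and 11, 16 and 1 in those of AMD3100, and Col4a3, its head-to-head partner, was counted 0, 22 and 1 times in control and not in AMD3100.

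Multiplexin collagens, which sit at the outer face of basement membranes and release fragments such as endostatin, were of middling level. Col18a1 stood at 31.6, 46.3 and 18.4 CPM in control and 45.5, 34.5 and 29.1 CPM in AMD3100. Col15a1 stood at 42.3, 32.9 and 24.0 CPM in control and 35.1, 17.5 and 24.7 CPM in AMD3100. Neither separated the groups. The last 1000 bases of Col18a1 overlap Slc19a1 on the opposite strand, as those of Col4a1 do Gm15418, and the sources used here do not say whether counting used the strand. Col7a1, the chain of the anchoring fibrils that tie a basement membrane to the stroma, stood at 3.15, 1.46 and 2.99 CPM in control and 2.13, 0 and 11.4 CPM in AMD3100, the highest value from 93 counts.

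FACIT collagens, which coat the surface of fibrils, summed to 242, 229 and 232 CPM in control and 286, 231 and 237 CPM in AMD3100. This sum did not drop in replicate 3 as the fibrillar sum did, but its genes were divided. Of the 8 tested, 4 were lower and 3 higher in replicate 3 of both groups. Col16a1 led the class with 102, 97.97 and 151 CPM in control and 122, 101 and 172 CPM in AMD3100, highest in replicate 3 of each group. In the sum it offset Col9a1, Col9a2, Col9a3 and Col14a1, which were lowest there. Col9a1 stood at 38.2, 42.5 and 23.4 CPM in control and 59.0, 33.0 and 14.2 CPM in AMD3100, lowest in replicate 3 of each. Col14a1, a FACIT of dense mesenchyme, stood at 49.99, 35.3 and 17.0 CPM in control and 30.8, 47.7 and 16.2 CPM in AMD3100. The other 2 chains of type IX collagen followed Col9a1 at a lower level, with Col9a3 at 13.4 to 33.5 CPM and Col9a2 at 8.28 to 21.4 CPM. For Col9a3 the last bases match those of Tcfl5, which overlaps it, so that its counts are uncertain. Col12a1, Col19a1 and Col20a1 did not pass 9.91 CPM, and Col22a1 was counted in 2 libraries.

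Beaded filament collagens summed to 476, 447 and 477 CPM in control and 422, 450 and 414 CPM in AMD3100, and their chains differed in direction within a single molecule. Type VI collagen is assembled from 3 different chains, mostly those of Col6a1, Col6a2 and Col6a3, into microfilaments close to the cell. Col6a1 (chr10:76708792-76726044) stood at 131, 93.0 and 27.8 CPM in control and 103, 125 and 35.7 CPM in AMD3100. Col6a2 (chr10:76595756-76623630) stood at 96.9, 113 and 34.6 CPM in control and 121, 132 and 44.2 CPM in AMD3100. Both were lowest in replicate 3 of each group, like the type I and type III chains. Col6a2 was higher in AMD3100 in all 3 pairs, with groups that overlapped. Col6a3 (chr1:90766860-90844001) stood at 237, 235 and 395 CPM in control and 186, 179 and 310 CPM in AMD3100, highest in replicate 3 of each group and lower in AMD3100 in all 3 pairs. Consequently the ratio of Col6a3 to Col6a1 counts was 1.81, 2.53 and 14.2 in control and 1.80, 1.43 and 8.66 in AMD3100. Col6a6 was also higher in replicate 3, at 19.2 against 8.76 and 3.42 CPM in control and 23.5 against 9.22 and 10.5 CPM in AMD3100. Col6a5 stayed at or under 3.41 CPM, and Col6a4 and Col28a1 had at most 17 and 9 counts.

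The remaining classes were small. Of the short chain network collagens, Col8a2 stood at 7.62, 20.2 and 13.0 CPM in control and 16.8, 11.5 and 20.4 CPM in AMD3100, Col8a1 at 0.963, 4.88 and 2.09 CPM in control and 3.40, 1.29 and 1.84 CPM in AMD3100, and Col10a1, the chain of hypertrophic cartilage, had 6 counts in 1 library and none in the others. Of the transmembrane collagens, Col13a1 stood at 26.4, 27.1 and 56.5 CPM in control and 33.8, 27.5 and 54.8 CPM in AMD3100, highest in replicate 3 of each group. Col17a1, the hemidesmosome collagen of basal epithelial cells, stood at 13.0, 9.54 and 6.98 CPM in control and 8.93, 9.68 and 6.88 CPM in AMD3100. Col23a1 stood at 11.5, 24.4 and 14.9 CPM in control and 26.1, 17.5 and 11.9 CPM in AMD3100, and neither gene separated the groups. Col25a1, required for motor nerves to innervate muscle, stood at 4.38, 3.57 and 5.68 CPM in control and 2.995, 2.21 and 3.19 CPM in AMD3100. It was the only collagen whose groups did not overlap. Col26a1, first described in testis and ovary, was the sixth most abundant of the 44 genes, with 232, 227 and 126 CPM in control and 245, 179 and 128 CPM in AMD3100.

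The difference between replicate 3 and the others was measured for each gene as the log2 ratio of replicate 3 to the mean log2 level of replicates 1 and 2 of its group, with 0.5 CPM added. Of the 37 collagens tested, 26 were lower in replicate 3 in both groups and 9 higher in both. The median was -0.77 in control and -0.70 in AMD3100, against 0.06 and 0.05 over all 13610 genes. In both groups, 12 of the 37 were below 0.5 times the level of replicates 1 and 2, against 8.07% of all genes tested, and 2 (Col20a1 and Col6a6) were above 2 times, against 9.40%. The 12 were Col3a1, Col1a2, Col1a1, Col5a1 and Col2a1 of the fibrillar class, Col4a1, Col4a2 and Col4a6 of the basement membrane, Col6a1, Col6a2 and Col6a5, and Col14a1. As a consequence the fibrillar share of the collagen signal was 74.9%, 74.7% and 57.2% in control and 73.8%, 75.2% and 56.2% in AMD3100, and the beaded filament share 9.51%, 8.77% and 19.7% in control and 8.20%, 9.11% and 17.8% in AMD3100.

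**Figure D3:**
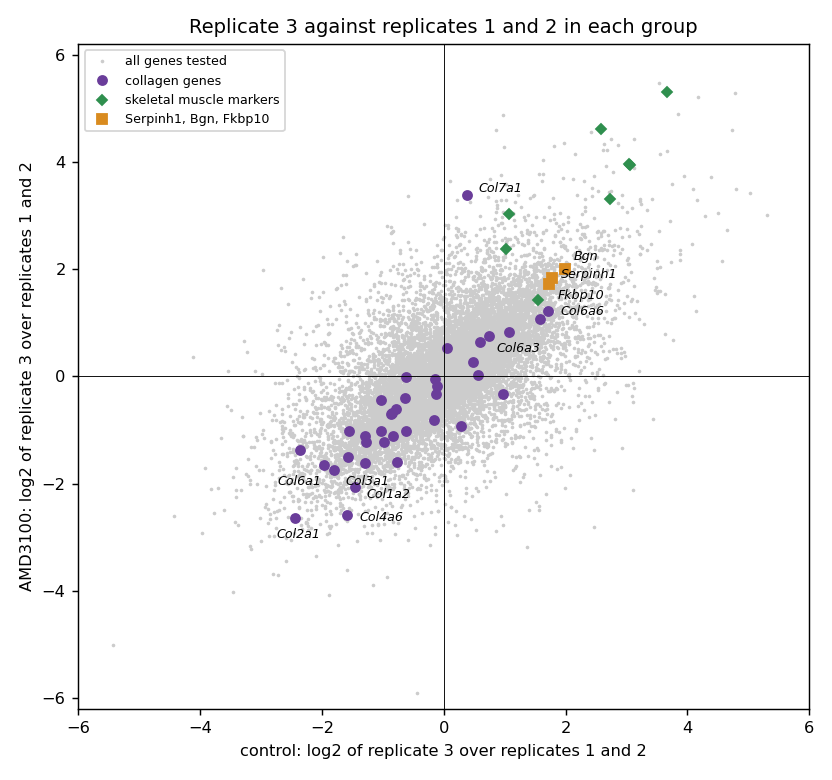
Log2 ratio of replicate 3 to replicates 1 and 2 in control (horizontal) and in AMD3100 (vertical) for all genes tested, with collagens, skeletal muscle markers and 3 collagen partners in color. Most collagens lie in the lower left, with Col3a1 at -1.80 and -1.75, and all 8 muscle markers in the upper right.

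Of the collagen-handling genes, the 19 tested chaperones and modifying enzymes divided, with 9 lower and 8 higher in replicate 3 of both groups and medians of -0.19 and -0.01, and of the 11 tested fibril partners 3 were lower and 6 higher (medians 0.23 and 0.17). From these lists 4 genes are given that were chosen after their values were seen. Serpinh1, the chaperone HSP47 that binds the collagen triple helix in the endoplasmic reticulum, stood at 516, 561 and 1841 CPM in control and 423, 508 and 1664 CPM in AMD3100. Fkbp10, a prolyl isomerase of collagen folding, stood at 86.8, 68.8 and 256 CPM in control and 66.2, 103 and 273 CPM in AMD3100. Bgn, the proteoglycan biglycan that binds type I fibrils, stood at 146, 173 and 632 CPM in control and 158, 188 and 694 CPM in AMD3100. These 3 were highest in replicate 3 of both groups, where the type I and type III chains were lowest. By contrast Crtap, a subunit of the prolyl hydroxylation complex, was lowest there, at 8.28 CPM in control and 5.53 CPM in AMD3100 against 22.2 to 31.2 CPM in the other libraries.

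Markers of the other cell types that a gland can hold were read in the same way. Of all genes tested, 9.40% were above 2 times and 8.07% below 0.5 times in replicate 3 of both groups. All 8 skeletal muscle markers stood above 2 times in replicate 3 of both groups, and their sum was 300, 280 and 1540 CPM in control and 194, 159 and 2008 CPM in AMD3100, with Myog, a myogenic transcription factor, the most abundant in replicate 3 and Actc1, encoding cardiac actin, in the others. Mesenchyme markers summed to 923, 948 and 1034 CPM in control and 861, 804 and 805 CPM in AMD3100, with Vim, encoding vimentin, the most abundant at 325 to 338 and 208 to 327 CPM, and 0 of 10 below 0.5 times in replicate 3 of both groups. Epithelial markers summed to 1981, 1954 and 1349 CPM in control and 2384, 2021 and 3328 CPM in AMD3100, led by the keratin Krt15 at 1042, 1012 and 888 CPM in control and 1367, 1016 and 2472 CPM in AMD3100, and 3 of 10 (Krt5, Krt8 and Sox10) were below 0.5 times in replicate 3 of both groups. Thus the mesenchymal and epithelial genes that the labelled tissue should hold were present in each library.

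Of the remaining lists, erythroid genes, led by the globin Hba-a1, summed to 7222, 19308 and 11342 CPM in control and 6981, 10987 and 11859 CPM in AMD3100. Nerve genes, led by Stmn2 or Tubb3, summed to 468 to 769 CPM, macrophage genes, led by Cx3cr1 or Csf1r, to 71.7 to 121 CPM, endothelial genes, led by Kdr in AMD3100 and by Pecam1 or Esam in control, to 23.0 to 58.7 CPM and bone genes, led by Spp1 in all but AMD3100 replicate 2, to 30.9 to 46.0 CPM over the 6 libraries. No marker gene was at 0 in all 6 libraries. The part of any of these cells in the collagen levels of replicate 3 was not tested.

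The study asked how blocking CXCR4 changes the transcripts of the branching gland. For the collagens, edgeR's quasi-likelihood test across all 13610 genes passing its filter gave no call. At an adjusted p under 0.05, 0 of the 37 collagens tested were called, against 0.00% of all genes. At an unadjusted p under 0.05 with a fold change over 1.5, the thresholds in the study's text, 0 were higher and 0 lower in AMD3100, against 0.397% and 1.28% of all genes. A figure caption of the study states a stricter fold change for the same gene counts. The lowest unadjusted p among collagens in edgeR was 0.18, for Col4a6, and none was under 0.05. DESeq2, quantile normalization with limma and a version of the study's own procedure called 0 as well. The median log2 fold change was 0.03, with 21 genes above 0 and 16 below, against a median of 0.02 over all genes. The other 7 (Col11a2, Col4a3, Col4a4, Col22a1, Col6a4, Col28a1 and Col10a1) did not pass the filter on low counts.

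**Figure D4:**
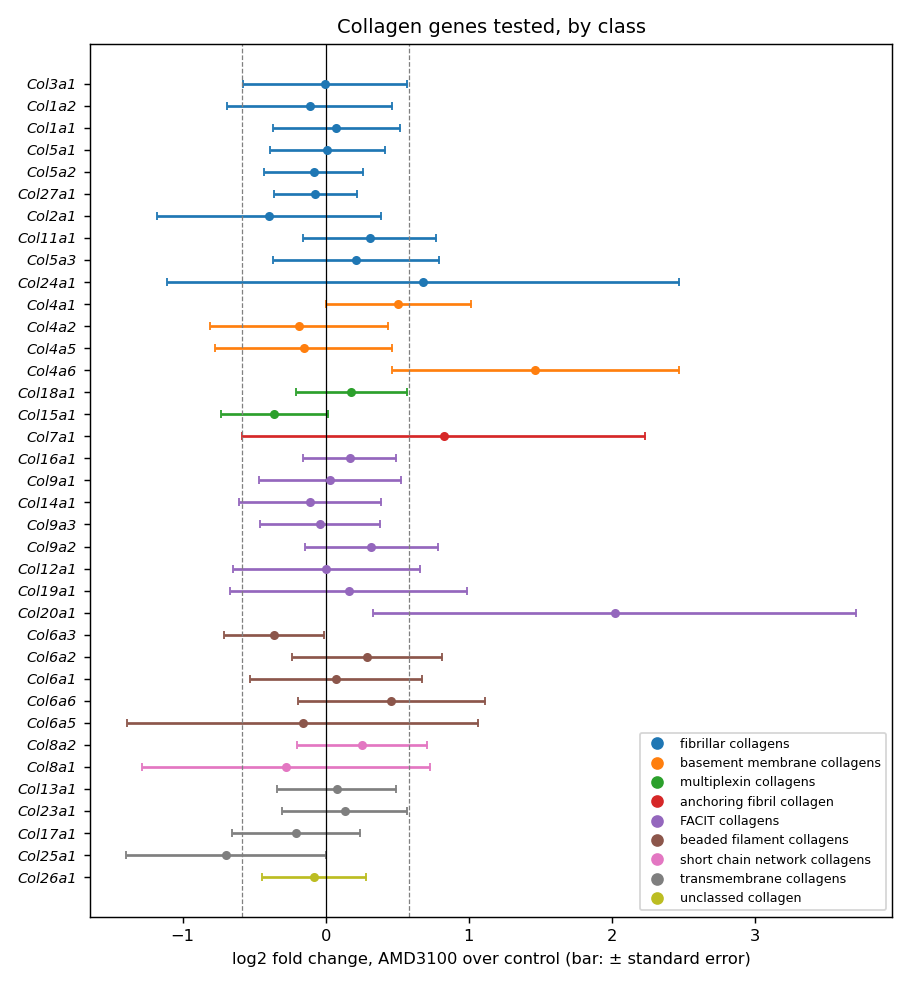
Log2 fold change of AMD3100 over control (horizontal) for the 37 collagens tested, by class, with dashed lines at a fold change of 1.5 in each direction. Bars are ± an approximate standard error, computed from the fold change and F statistic of edgeR. Most points lie between the dashed lines, and Col4a6 (1.47) and Col20a1 (2.02) lie farthest to the right with wide bars.

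For the most abundant genes the interval was wide despite the depth. The log2 fold change of Col3a1 was -0.01 (SE 0.57), that of Col1a2 -0.11 (SE 0.58) and that of Col1a1 0.07 (SE 0.44). Col4a1 stood at 0.51 (SE 0.51), Col4a2 at -0.19 (SE 0.62), Col4a6 at 1.47 (SE 1.0) and Col6a3 at -0.36 (SE 0.35). Each of these 7 changes was less than 1.5 times its standard error. Non-overlap of the groups was seen for 0 collagens toward higher and 1 toward lower levels (Col25a1, log2 fold change -0.70, SE 0.70), against 3.28% and 4.17% of all genes. With the summed level of all collagens, of each class and 9 ratios between chains taken as 19 single values, the exact two-sided permutation test gave p from 0.20 to 1.0, all 1.0 after adjustment, where 0.10 is the smallest p that 3 against 3 libraries allow.

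With the replicate number as a block in edgeR, which sets aside what same-numbered libraries share, 2 collagens were higher and 1 lower at an unadjusted p under 0.05, against 2.79% and 3.87% of all genes. Col4a1 was 0.46 higher on the log2 scale (unadjusted p = 0.016, adjusted p = 0.68), Col4a6 was 1.60 higher (unadjusted p = 0.035, adjusted p = 0.72) and Col6a3 was -0.36 (unadjusted p = 0.013, adjusted p = 0.63). Only Col4a6 also passed a fold change of 1.5, against 1.49% of all genes toward higher and 2.90% toward lower levels, and it rests on 8 to 168 counts per library. Without control replicate 2, the control library with the most Col4a6, it also passed in edgeR without the block (log2 fold change 2.93, unadjusted p = 0.026). Without both replicate 3 libraries, 0 collagens passed p and fold change together in edgeR, and the median log2 fold change was 0.02. Col4a1 then stood at 0.55 (unadjusted p = 0.0095 in edgeR), Col6a3 at -0.38 (unadjusted p = 0.022) and Col4a6 at 1.49 (unadjusted p = 0.079). Over replicates 1 and 2 alone, the groups did not overlap for 7 collagens toward higher levels (Col4a1, Col4a6, Col6a2, Col6a6, Col9a2, Col13a1 and Col20a1) and for 4 toward lower levels (Col6a3, Col4a2, Col2a1 and Col25a1). Of all genes, 18.9% and 18.1% did so, so that 7 of 37 was about the background share and 4 of 37 was below it.

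**Figure D5:**
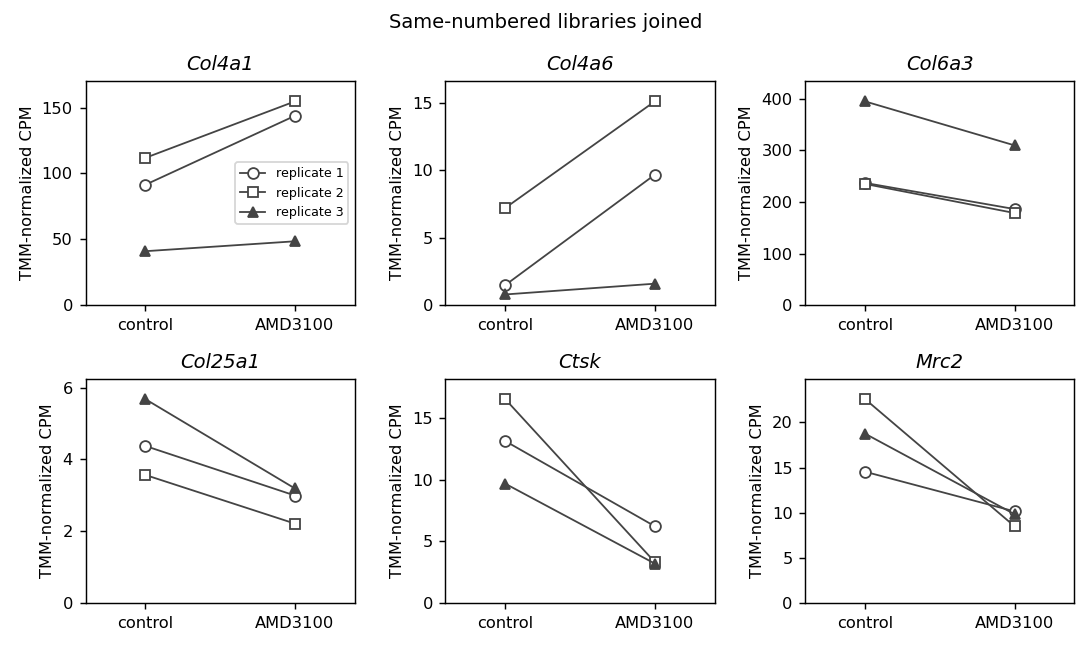
TMM-normalized CPM in control and AMD3100 for 4 collagens and 2 collagen-handling genes, with same-numbered libraries joined and replicate 3 as filled triangles. The lines of each panel run the same way, upward for Col4a1 and Col4a6 and downward for Col6a3, Col25a1, Ctsk and Mrc2. Col2a1, Col6a2, Col6a6, Col9a2, Col16a1 and Col20a1 also ran one way in all pairs and are not shown.

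Genes that fold, process, bind or degrade collagen were read in 5 lists. In the list of chaperones and modifying enzymes, 19 of the 20 genes in the files were tested, with 9 above and 10 below 0 and a median log2 fold change of -0.09. None passed p and fold change. P4ha1, a catalytic subunit of prolyl hydroxylase, stood at 19.2, 25.9 and 43.9 CPM in control and 17.2, 12.4 and 27.3 CPM in AMD3100 (log2 -0.65, SE 0.44). Ppib, the isomerase cyclophilin B, stood at 135, 178 and 76.5 CPM in control and 107, 98.7 and 54.9 CPM in AMD3100 (log2 -0.58, SE 0.40). Both were lower in each pair, with groups that overlapped. On the other side, Plod1, a lysyl hydroxylase, stood at 21.5, 26.9 and 63.1 CPM in control and 30.7, 48.5 and 68.3 CPM in AMD3100 (log2 0.40, SE 0.47). P4ha3, another catalytic subunit of prolyl hydroxylase, stood at 0, 0 and 2.29 CPM in control and 0.403, 2.95 and 1.23 CPM in AMD3100 (log2 1.0, SE 1.92). With the replicate block, P4ha1 passed p and fold change (log2 -0.63, unadjusted p = 0.044 in edgeR, adjusted p = 0.73).

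Of the procollagen processing and crosslinking genes, 10 of 13 were tested, 5 above and 5 below 0, with a median of 0.01. Bmp1, the protease that trims the C-terminal end of procollagen, stood at 38.9, 35.8 and 43.7 CPM in control and 64.7, 52.7 and 57.2 CPM in AMD3100 (log2 0.56, SE 0.27, unadjusted p = 0.066 in edgeR). Its groups did not overlap, and it was the 1 gene of the list of which this held, against 3.28% of all genes toward higher levels. Loxl2 and Loxl3, of the lysyl oxidase family that crosslinks collagen, stood at 110, 134 and 30.02 CPM and 58.0, 44.8 and 26.1 CPM in control, and at 50.2, 79.7 and 33.8 CPM and 23.3, 34.1 and 21.7 CPM in AMD3100 (log2 -0.74, SE 0.54, and -0.70, SE 0.38). With the replicate block both passed p and fold change in edgeR, at an unadjusted p = 0.037 and 0.032 (adjusted p = 0.72 for both), and with it 5 genes of the 5 lists were lower and 0 higher, against 2.90% and 1.49% of all genes. Adamts3, a protease of the N-terminal end, stood at 0.175, 1.82 and 0.0997 CPM in control and 3.17, 3.96 and 1.35 CPM in AMD3100 (log2 1.99, SE 1.37).

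Among fibril partners, 11 of 13 were tested, 6 above and 5 below 0, with a median of 0.01, and none passed p and fold change. Sparc, a collagen-binding matrix protein, was the most abundant, at 1088, 1070 and 827 CPM in control and 1127, 1223 and 924 CPM in AMD3100 (log2 0.13, SE 0.28). The proteoglycan Kera, encoding keratocan, stood at 14.5, 19.7 and 23.3 CPM in control and 9.04, 16.3 and 11.2 CPM in AMD3100 (log2 -0.66, SE 0.39), and Thbs1, the matrix glycoprotein thrombospondin 1, at 24.1, 20.3 and 6.48 CPM in control and 12.7, 13.7 and 6.26 CPM in AMD3100 (log2 -0.64, SE 0.55). Both were lower in AMD3100 in all 3 pairs, and their groups overlapped. Prelp stood at 0.613, 0 and 1.70 CPM in control and 2.82, 2.86 and 0.123 CPM in AMD3100 (log2 1.34, SE 1.69).

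Of collagen receptors, 6 of 10 were tested, 3 above and 3 below 0. Ddr1, the discoidin domain receptor of epithelial cells, had 147, 139 and 317 CPM in control and 130, 105 and 403 CPM in AMD3100, highest in replicate 3 of each group (log2 0.08, SE 0.56). Itga11, an integrin chain, stood at 0.350, 1.60 and 1.60 CPM in control and 2.76, 1.38 and 1.60 CPM in AMD3100 (log2 0.69, SE 1.16), and Lair1, an inhibitory receptor of leukocytes, at 2.98, 0.0728 and 1.99 CPM in control and 0.979, 0.0922 and 1.96 CPM in AMD3100 (log2 -0.73, SE 1.56). The integrin chains Itga1, Itga2 and Itga10 did not pass 0.806 CPM, and the platelet receptor Gp6 was at 0 in all 6 libraries, which allows up to 0.331 CPM in the shallowest. Mrc2, the receptor Endo180 that takes collagen into cells for breakdown, stood at 14.5, 22.6 and 18.7 CPM in control and 10.1, 8.48 and 9.82 CPM in AMD3100 (log2 -0.97, SE 0.37, unadjusted p = 0.027, adjusted p = 1.0 in edgeR).

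Of the collagen-degrading enzymes, 5 of 8 were tested, 4 above and 1 below 0. Ctsk, the collagen-cleaving protease cathepsin K, stood at 13.1, 16.5 and 9.67 CPM in control and 6.22, 3.32 and 3.19 CPM in AMD3100 (log2 -1.62, SE 0.50, unadjusted p = 0.010, adjusted p = 1.0 in edgeR). Every AMD3100 library lay below every control library for both Ctsk and Mrc2. Over the 5 lists, 2 of 51 genes tested (3.92%) had non-overlapping groups toward lower and 1 (1.96%) toward higher levels, which is near the 4.17% and 3.28% of all genes. Past p and fold change in edgeR, 2 of the 51 were lower (3.92%), again Ctsk and Mrc2, and 0 higher, against 1.28% and 0.397% of all genes. Without both replicate 3 libraries the log2 fold change was -1.63 for Ctsk (unadjusted p = 0.018 in edgeR) and -0.9996 for Mrc2 (unadjusted p = 0.062). In that setting 4 of 49 genes tested were lower past p and fold change and 1 higher, against 2.48% and 1.91% of all genes. Beside Ctsk the lower ones were Loxl2 (log2 -0.92, unadjusted p = 0.0023 in edgeR), Loxl3 (-0.85, unadjusted p = 0.016) and Ppib (-0.61, unadjusted p = 0.0066), and the higher one was Bmp1 (0.65, unadjusted p = 0.025). In edgeR with all 6 libraries, Loxl2, Loxl3 and Ppib had an unadjusted p = 0.20, 0.094 and 0.18. Single libraries were left out of that fit, with the other libraries of replicate 3 kept, and this could weaken the lower ones. Loxl2 stood at -0.36 (unadjusted p = 0.56 in edgeR) and Ppib at -0.28 (unadjusted p = 0.54) without control replicate 2. Loxl3 stood at -0.43 (unadjusted p = 0.31) without control replicate 1. Ctsk kept an unadjusted p under 0.05 in edgeR without any 1 library, up to 0.0497 without control replicate 2, whereas Mrc2 kept it only without control replicate 1 (0.022) and stood at 0.051 to 0.11 without each of the others. The matrix metalloproteinase Mmp14 stood at 253, 208 and 292 CPM in control and 241, 240 and 299 CPM in AMD3100 (log2 0.05, SE 0.28). Mmp2 stood at 66.4, 68.7 and 39.6 CPM in control and 64.7, 80.9 and 41.0 CPM in AMD3100 (log2 0.10, SE 0.36). Neither separated the groups, and Mmp1a was at 0 in all 6 libraries.

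Markers of the cell types of the gland were compared between the groups as well. The summed mesenchyme markers lay lower in every AMD3100 library (804 to 861 CPM) than in any control library (923 to 1034 CPM), and the summed epithelial markers higher (2021 to 3328 against 1349 to 1981 CPM). Without the most abundant gene of each list the groups overlapped, although the pairs kept their direction. Without Vim the other 9 mesenchyme markers summed to 585, 610.1 and 709 CPM in control and 562, 477 and 597 CPM in AMD3100, and without Krt15 the other 9 epithelial markers summed to 939, 942 and 461 CPM in control and 1018, 1005 and 856 CPM in AMD3100, lower in all 3 pairs for the former and higher in all 3 for the latter. Of the 10 mesenchyme markers 9 had a log2 fold change below 0, with a median of -0.23, and of the 10 epithelial markers 7 had one above 0, with a median of 0.28. All 8 erythroid genes tested (median -0.40) and 6 of 7 endothelial genes (median -0.45) had one below 0. Of all 13610 genes tested, 7100 had one above 0 and 6510 one below. The erythroid sum was highest in control replicate 2. With libraries left out, the log2 fold change rose above 0 for Hba-a1, Hbb-y, Hbb-bh1, Hbb-bt and Alas2 (up to 0.29, 0.41, 0.14, 0.11 and 0.72). Hba-a1 and Alas2 were higher in AMD3100 in 2 of the 3 pairs. The endothelial sum did not pass 58.7 CPM in any library. Osr1, a transcription factor of the mesenchyme, stood at 184, 172 and 169.5 CPM in control and 148, 140.0 and 161 CPM in AMD3100 (log2 -0.23), and Cdh1, encoding E-cadherin of the epithelium, at 337, 302 and 211 CPM in control and 344, 394 and 507 CPM in AMD3100 (log2 0.55). These were the 2 of 64 markers tested whose groups did not overlap, 1.56% toward lower and 1.56% toward higher levels against 4.17% and 3.28% of all genes. Past p and fold change in edgeR there were 0 markers. With the replicate block 1 of the 64 was higher (1.56%) and 3 were lower (4.69%), against 1.49% and 2.90% of all genes. Krt15 was 0.62 higher (unadjusted p = 0.024 in edgeR), whereas Twist1, a mesenchymal transcription factor, stood at -0.97 (unadjusted p = 0.019), Myod1 at -2.05 (unadjusted p = 0.031) and Myog at -1.16 (unadjusted p = 0.0044). The adjusted p was 0.47 for Myog and 0.70 to 0.72 for the others. Over replicates 1 and 2 alone, 6 of the 8 skeletal muscle markers had non-overlapping groups toward lower levels, against 18.1% of all genes, with Myog at 41.1 and 40.0 CPM in control and 13.9 and 9.95 CPM in AMD3100. Without both replicate 3 libraries 5 of 62 markers were lower past p and fold change in edgeR (8.06%), among them Myog, Actc1 and Myh3, against 2.48% of all genes. The part of these cell types in the values of the collagens, Ctsk, Mrc2 and the other partner genes was not tested.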

How the data were processed

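The authors sequenced 3′ mRNA libraries (QuantSeq) of 3 control and 3 AMD3100-treated tubes of eSMGs as single reads of 50 bases, and deposited 1 file of raw counts by gene symbol per library. The submitters' processing notes name Bowtie2, edgeR and the build mm10. The counter, annotation and use of strand are not given in the sources used here, and no molecular identifiers are mentioned. Of 23282 lines per library, 44 repeated a symbol, and the 22 with identical counts were left out. Groups and replicate numbers came from the sample labels, which do not say whether tubes came from separate litters, so that p-values measure only the spread between these libraries.

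The main test was edgeR 4.0.16 in R 4.3.3 (TMM, filterByExpr on condition, glmQLFit, glmQLFTest, Benjamini-Hochberg adjustment), with condition as the only term and 13610 genes kept. The biological coefficient of variation was 0.579. Standard errors (SE) are approximate, as the absolute log2 fold change divided by the square root of the F statistic of the test. Alternatives were DESeq2 1.42.0, quantile normalization of log2(count + 1) with limma 3.58.1, a version of the study's procedure (the same normalization, unlogged fold changes, an unadjusted equal-variance test), no filter, Rn45s left out, replicate blocks and libraries left out. Deviations of same-numbered libraries from their group means, with numbers from the labels, correlated at r = 0.185, 0.171 and 0.584 over the 13610 genes, so that the numbers were taken as pairs, although control 2 and AMD3100 1 reached 0.198.

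The collagens and the 14 partner and marker lists were chosen with earlier results of these data known. Values in every library were given for the 3 collagens of highest mean CPM of each class, those with non-overlapping groups, those passing p and fold change, the paired type IV genes and the 2 partners of lowest p in each direction per list, and marker lists were given by their sums and most abundant genes. Others were named after their values were seen. Promoter windows and positions were RefSeq's (GRCm38.p6). Overlaps and shared ends were read from GENCODE vM1 on another build, by name only, as an overlap with the last 1000 bases or a match of at least 50 bases at 90% in the last 300 bases.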

Additional observations from a re-analysis of the deposited data

How the results depend on the processing

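The count of all genes at p under 0.05 with a fold change over 1.5 was 228, and became 429 with the version of the study's procedure, 598 with the replicate block and 163 to 613 with libraries left out (451 without AMD3100 replicate 3, 547 without control replicate 3 and 613 without both). At an adjusted p under 0.05 it was 0, and 5 with DESeq2 and 3 with the replicate block, none of them a collagen. Collagens past p and fold change numbered 0, and 1 with the replicate block (Col4a6) and 0 to 1 with libraries left out. Counted by list after seeing the data, partner genes past p and fold change numbered 2, and 5 with the replicate block and 1 to 6 with libraries left out (6 without control replicate 3, 5 without both replicate 3 libraries, 1 without AMD3100 replicate 1 or 3), and markers 0, and 4 with the block and 0 to 7 with libraries left out (7 without AMD3100 replicate 3, all lower and 10.9% of those tested against 2.45% of all genes, among them the muscle genes Actc1, Myh3, Mylpf, Myod1, Myog and Tnnt1, and 6 without both). The setting without AMD3100 replicate 3 kept control replicate 3, in which the muscle genes were also high. In the opposite setting, without control replicate 3, 0 markers passed p and fold change. Among the collagens, their partner genes and the cell type markers, the replicate block changed no call past p and fold change other than those given with the results. At an unadjusted p under 0.05 alone, it added Col4a1, Col6a3, Ppib, Bmp1, Plod1, Cdh1, Krt14, Hbb-bt and Hbb-bs. The median log2 fold change of the collagens, 0.03, was -0.023 with the version of the study's procedure and -0.15 to 0.21 with libraries left out. Over replicates 1 and 2 alone, a setting chosen after seeing the data, collagens with non-overlapping groups numbered 7 toward higher and 4 toward lower levels, against 0 and 1.

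Signs changed for genes with no call. With the replicate block the log2 fold change was 0.0016 for Col3a1, 0.017 for Col4a2, -0.68 for Col7a1, -0.14 for Col9a1 and -0.080 for Ddr1. With quantile normalization and limma it was 0.025 for Col4a2, -0.36 for Col7a1, 0.028 for Col8a1, -0.14 for Col9a1 and -0.12 for Ddr1. With libraries left out, it ran over Col13a1 -0.27 to 0.54, Col14a1 -0.53 to 0.27, Col16a1 -0.088 to 0.40, Col17a1 -0.40 to 0.034, Col18a1 -0.10 to 0.54, Col1a1 -0.24 to 0.35, Col1a2 -0.46 to 0.30, Col23a1 -0.20 to 0.49, Col26a1 -0.35 to 0.11, Col3a1 -0.40 to 0.37, Col4a2 -0.64 to 0.34, Col4a5 -0.62 to 0.41, Col6a1 -0.35 to 0.54, Col6a2 -0.079 to 0.63, Col7a1 -1.23 to 1.42, Col8a1 -0.76 to 0.51, Col8a2 -0.031 to 0.66, Col9a1 -0.56 to 0.40, Ddr1 -0.79 to 0.58, Mmp14 -0.075 to 0.18 and Mmp2 -0.13 to 0.31. The cause was not tested. Of 42 genes named by rule and tested, these 21 changed sign in this way, and 6 with another tool, filter or block. Libraries held 9051595 to 14393031 counts, and calls of genes with few counts, such as P3h2, P4ha3 and Adamts3, came and went between settings (no filter, a library left out).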
